A study of Mus musculus with 20 samples.

Results

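The genes described here are 10 that respond to glucocorticoid hormones in many tissues: Fkbp5, Sgk1, Tsc22d3, Zbtb16, Cdkn1a, Nfkbia, Mt1, Mt2, Pdk4 and the glucocorticoid receptor gene Nr3c1. They were chosen by symbol, and each matched exactly 1 of the 26475 loci that carry a gene symbol. All 10 lay in a locus with a single symbol and had enough reads to be tested. Their levels were read from RNA sequencing of the striatum of 20 male mice, with 1 library per mouse.

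The mice were about 6 months old and labelled Collaborative Cross, a population bred from several inbred founder strains. The labels give the whole striatum, the forebrain nucleus that receives dense dopamine input, as the tissue. The study compared 4 groups of 5 mice. The control saline and control amphetamine groups came from the control line, and the overactive saline and overactive amphetamine groups from a line bred for high activity in the home cage. Amphetamine was d-amphetamine, which releases dopamine, at 25 mg/kg, and all tissue was taken 2 hours after the injection. With 1 line of each kind, a difference due to the selection and any other difference between the lines cannot be told apart.

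Corticosterone, the main glucocorticoid of mice, is released from the adrenal gland in a daily rhythm and during stress. It binds the receptor encoded by Nr3c1, which then enters the nucleus and binds DNA as a dimer at paired copies of a short sequence, or acts through other bound factors. Of its target genes, Fkbp5 encodes a co-chaperone that lowers the hormone affinity of the receptor. Nfkbia encodes an inhibitor of the inflammatory factor NF-kappaB, and Tsc22d3 the anti-inflammatory protein GILZ. In brain, Fkbp5, Sgk1, Tsc22d3 and Pdk4 are commonly read as markers of recent glucocorticoid exposure. Plasma hormone was not measured in the data used here.

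Promoter sequence shows what is written upstream of the genes on which the results turn. RefSeq promoter windows on GRCm38.p6 were matched by symbol for 8 of the 10 genes, in 16 entries of 250 bases ending just before a transcript start. Zbtb16 and Nr3c1 are named only. The hexamer that a single receptor molecule contacts was searched as AGAACA on either strand. The full site was AGAACA, any 3 bases and TGTTCT, which holds 2 hexamers. Of 32817 mouse windows, 16.1% held a hexamer and 3 (0.00914%) held the full site. One of those 3 belongs to a transcript start of Sgk1, which encodes a serum- and glucocorticoid-induced kinase, and the others to Acnat2 and Gm35041. Sgk1 and Nfkbia are shown together because their levels followed each other from mouse to mouse. Capitals mark hexamers in Sgk1, and the pair 3 bases apart is the full site.
Sgk1, chr10:21993640-21993889, plus strand: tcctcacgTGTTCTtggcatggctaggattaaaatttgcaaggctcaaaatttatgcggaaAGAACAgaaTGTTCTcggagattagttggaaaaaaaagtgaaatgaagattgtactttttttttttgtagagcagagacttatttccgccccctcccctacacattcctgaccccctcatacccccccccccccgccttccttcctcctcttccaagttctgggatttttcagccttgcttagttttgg
Nfkbia, chr12:55492648-55492897, minus strand: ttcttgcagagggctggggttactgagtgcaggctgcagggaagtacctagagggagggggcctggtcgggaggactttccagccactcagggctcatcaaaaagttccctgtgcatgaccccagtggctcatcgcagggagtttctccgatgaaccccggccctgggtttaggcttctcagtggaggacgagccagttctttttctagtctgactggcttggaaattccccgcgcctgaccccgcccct

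The Nfkbia window held no hexamer. Among the other members a hexamer was found in 1 window of Tsc22d3, on the minus strand of chromosome X, and in 2 further windows of Sgk1, and no window of Fkbp5, Cdkn1a, Mt1, Mt2 or Pdk4 held one. A match is a description of the letters, and no match says only that they are not in these windows. The metallothionein genes Mt1 and Mt2, which encode small metal-binding proteins and lie side by side on chromosome 8, followed each other most closely of the 45 pairs. Their windows were searched for the core of the metal response element, TGCACNC or TGCGCNC on either strand, which 21.4% of all windows held. Capitals mark it: Mt2 held 3 copies and Mt1 held 1.
Mt2, chr8:94172368-94172617, plus strand: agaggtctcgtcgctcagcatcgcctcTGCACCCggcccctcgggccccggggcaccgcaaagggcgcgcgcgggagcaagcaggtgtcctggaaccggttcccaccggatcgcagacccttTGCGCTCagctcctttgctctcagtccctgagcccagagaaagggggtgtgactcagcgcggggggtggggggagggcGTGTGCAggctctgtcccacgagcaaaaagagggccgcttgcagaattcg
Mt1, chr8:94178839-94179088, plus strand: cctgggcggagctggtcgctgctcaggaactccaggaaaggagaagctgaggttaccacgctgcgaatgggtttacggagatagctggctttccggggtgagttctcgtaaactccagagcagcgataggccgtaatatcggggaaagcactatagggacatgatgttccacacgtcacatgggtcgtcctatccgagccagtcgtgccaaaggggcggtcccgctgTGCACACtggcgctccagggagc

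Cdkn1a encodes p21, an inhibitor of cyclin-dependent kinases, and is shown because it was the 1 member that passed a test between groups. Its window at the start of the deposited locus held neither motif, so no letter is in capitals.
Cdkn1a, chr17:29090729-29090978, plus strand: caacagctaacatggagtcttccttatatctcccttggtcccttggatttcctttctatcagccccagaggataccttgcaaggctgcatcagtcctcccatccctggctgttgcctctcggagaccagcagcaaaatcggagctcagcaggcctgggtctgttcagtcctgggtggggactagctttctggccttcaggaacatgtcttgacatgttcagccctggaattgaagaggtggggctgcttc

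The libraries held 31393788 to 53773028 counts. Markers of striatal projection neurons were present throughout: all 10 listed were tested, the dopamine receptor gene Drd1a stood at 179 CPM or more in every library and Ppp1r1b at 892 or more. Cortical excitatory neuron markers were present too, and their summed level was lowest in the overactive saline group, with a median of 344 CPM (range 285 to 554) over 12 genes. The medians of the other groups were 704 (range 495 to 1246) in control saline, 1070.3 (range 948 to 1316) in control amphetamine and 883 (range 392 to 1446) in overactive amphetamine. None of the 12 cortical markers was at 0 in any library. CPM are counts scaled to each library's total with a correction for composition (TMM). Changes are log2 fold changes from edgeR's quasi-likelihood test with Benjamini-Hochberg adjustment over 17206 genes, and a gene passed at an adjusted p under 0.05. In whole tissue, fewer cells of a type and less RNA per cell cannot be told apart.

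Per kilobase of annotated exon, the metallothionein genes stood highest and Cdkn1a lowest. Over all 20 libraries Mt2 averaged 87.1 ± 19.2 CPM per kilobase and Mt1 64.2 ± 15.4 (SD, n = 20). The order of these 2 rests on the annotated exon length, 0.588 kb for Mt2 and 1.246 kb, its whole span, for Mt1. In CPM Mt1 stood higher, at 80.0 against 51.2. Sgk1 followed at 23.9 ± 6.53, Tsc22d3 at 19.6 ± 4.06 and Nr3c1 at 15.7 ± 1.28. Zbtb16, a zinc finger transcription factor gene also called PLZF, stood at 10.7 ± 2.69, Nfkbia at 9.29 ± 1.15 and Fkbp5 at 7.60 ± 1.02. Pdk4, whose kinase turns cells from glucose to fatty acid use by inhibiting pyruvate dehydrogenase, stood at 6.49 ± 1.54 CPM per kilobase and Cdkn1a at 3.74 ± 1.59. Taking the mean ± 1 SD, neighbours in this order overlapped except for Mt1 and Sgk1, and Nr3c1 and Zbtb16. The spread differed between genes on the CPM scale: the coefficient of variation over all libraries was 8.17% for Nr3c1 and 42.4% for Cdkn1a.

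Each gene's position is its span in GENCODE M21 (build GRCm38, first base 1). Fkbp5 (XLOC_014297 in the deposited table) lies on chromosome 17 at 28399094 to 28517527 and Cdkn1a (XLOC_013659) on the same chromosome at 29090976 to 29100727. Sgk1 (XLOC_002193) lies on chromosome 10 at 21882184 to 21999903, Nfkbia (XLOC_007099) on chromosome 12 at 55489410 to 55492647 and Zbtb16 (XLOC_034154) on chromosome 9 at 48654297 to 48836222. Mt2 (XLOC_031739) lies on chromosome 8 at 94172664 to 94173568 and Mt1 (XLOC_031740) beside it at 94179082 to 94180327. Tsc22d3 (XLOC_036299) lies on chromosome X at 140539528 to 140600659, Pdk4 (XLOC_027163) on chromosome 6 at 5483351 to 5496309 and Nr3c1 (XLOC_015644) on chromosome 18 at 39410545 to 39519421. A value belongs to the whole deposited locus, exons and untranslated regions included. Deposited loci can differ from these spans, and that of Fkbp5 ends at 28486305 and that of Nr3c1 at 39490710.

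**Figure D1:**
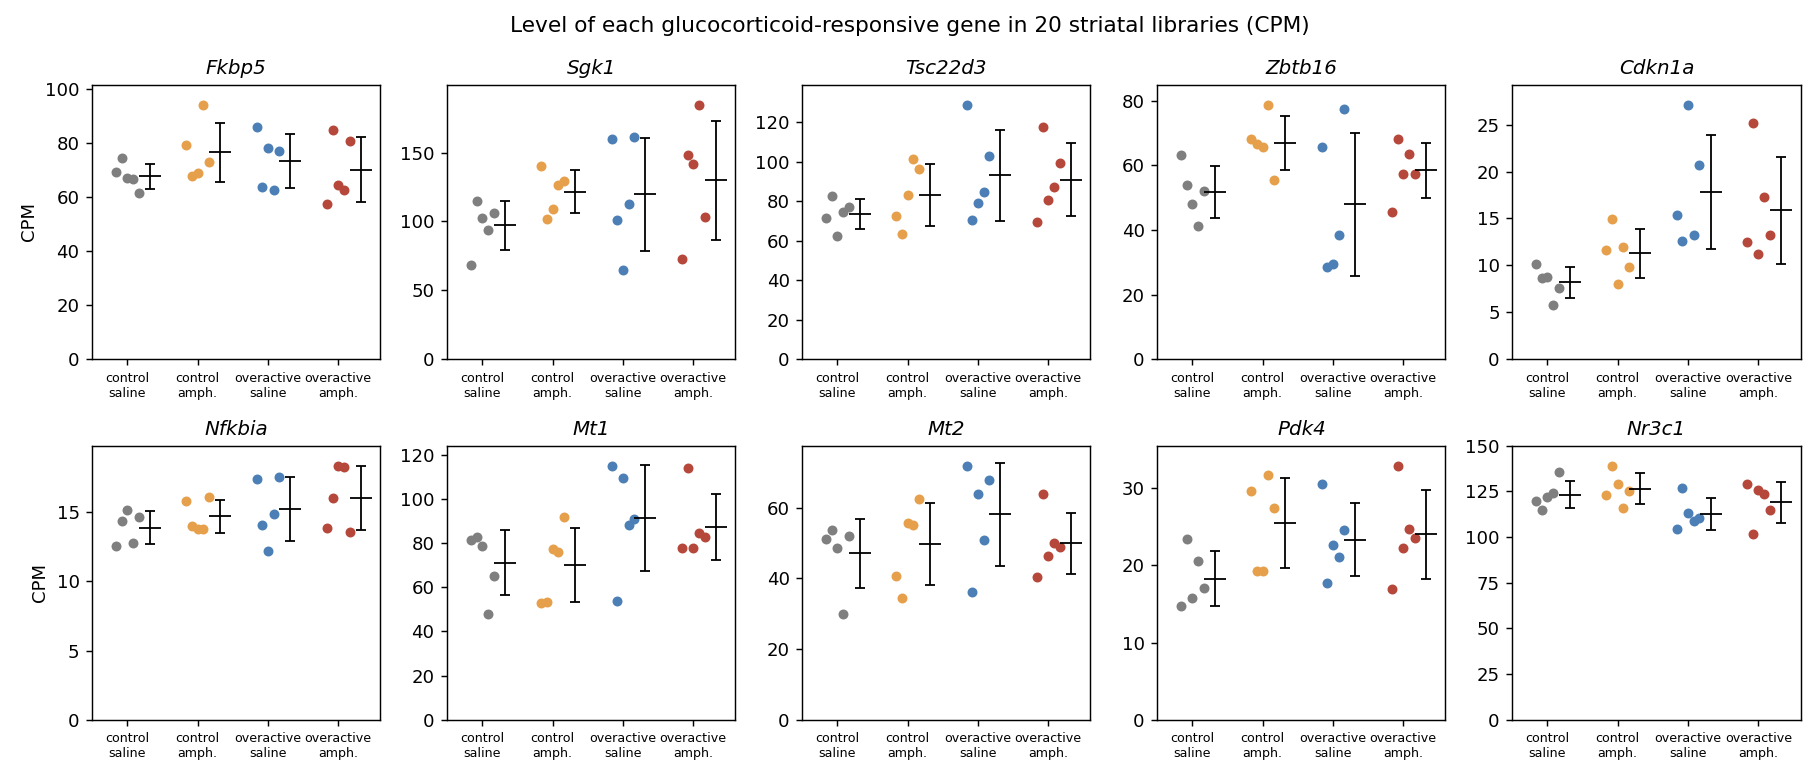
Each panel shows 1 gene, with CPM on the vertical axis from 0 and the 4 groups on the horizontal axis; points are libraries and bars the mean and SD (n = 5). All 5 overactive saline libraries of Cdkn1a (12.6 to 27.1 CPM) lie above all 5 control saline libraries (5.78 to 10.1 CPM), and groups overlap for the other 9 genes.

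The first comparison asked what amphetamine did in the control line. No member passed, where the share of all genes called was 0% (edgeR, 0 of 17206; 5.56% at an unadjusted p under 0.05). Of the 10 members 9 had a positive log2 fold change, with a median of 0.18 against 0.00 over all genes. One of 10 had an unadjusted p under 0.05. DESeq2 and limma-voom called 0 members as well, with 1 and 2 members under an unadjusted p of 0.05. The 4 comparisons between pairs of groups share their groups, so the values of 1 comparison are not independent of those of the next. Nor are the members independent readings in a count of signs or a median, here or below. Several varied together from mouse to mouse within groups, such as Mt1 and Mt2 (r = 0.93) and Sgk1 and Nfkbia (r = 0.89).

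Pdk4 had the highest estimate after amphetamine in the control line. Its levels were 14.7, 23.4, 15.7, 20.5 and 17.02 CPM in control saline libraries 1 to 5 and 29.6, 19.2, 19.3, 31.6 and 27.5 CPM in control amphetamine libraries 1 to 5. Of the amphetamine libraries 3 stood above every saline library and the other 2 within their range. The log2 fold change was 0.48 (95% interval 0.09 to 0.87, unadjusted p = 0.0182, edgeR adjusted p = 0.88), so it did not pass. In the overactive line Pdk4 measured 30.5, 17.7, 22.6, 21.1 and 24.6 CPM in saline and 16.9, 32.9, 22.2, 24.7 and 23.5 CPM under amphetamine. Both the highest and the lowest library were amphetamine libraries there, and the log2 fold change was 0.04 (95% interval -0.34 to 0.43). The difference between the lines in the response was -0.44 (95% interval -0.99 to 0.11, adjusted p = 0.9999).

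Fkbp5 varied little in control saline, at 69.2, 74.3, 67.2, 66.9 and 61.4 CPM. Under amphetamine the control libraries measured 79.4, 67.8, 68.8, 94.1 and 72.9 CPM, with libraries 1 and 4 above all saline libraries. The log2 fold change was 0.18 (95% interval -0.06 to 0.42). In the overactive line Fkbp5 measured 85.9, 63.7, 78.2, 62.5 and 77.3 CPM in saline and 57.4, 84.9, 64.6, 62.8 and 81.0 CPM under amphetamine, and the 2 sets of libraries overlapped almost wholly. The log2 fold change there was -0.07 (95% interval -0.31 to 0.17), so a change larger than 1.5-fold in either direction lies outside both intervals. Nr3c1 itself had log2 fold changes of 0.04 (95% interval -0.10 to 0.18) in the control line and 0.08 (-0.06 to 0.22) in the overactive line, the narrowest intervals of the 10 genes.

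Sgk1 measured 68.3, 115, 102, 93.9 and 106 CPM in control saline and 141, 102, 109, 127 and 129.6 CPM in control amphetamine. Here 3 amphetamine libraries stood above all saline libraries, and the log2 fold change was 0.32 (95% interval -0.17 to 0.81). The overactive line spread more widely, with 159.8, 101, 64.6, 113 and 161 CPM in saline and 72.6, 148, 142, 184 and 103 CPM under amphetamine (log2 0.12, 95% interval -0.37 to 0.61). Zbtb16 measured 63.4, 54.02, 47.9, 41.4 and 52.2 CPM in control saline and 68.1, 66.7, 65.7, 78.7 and 55.4 CPM in control amphetamine. All but 1 of these amphetamine libraries lay above every saline library (log2 0.37, 95% interval -0.09 to 0.83). In overactive saline Zbtb16 ranged from 28.5 to 77.5 CPM and under amphetamine from 45.7 to 68.2 CPM (log2 0.29, 95% interval -0.17 to 0.75). Pooled over both lines its log2 fold change was 0.33 (95% interval 0.00 to 0.65, unadjusted p = 0.0485, edgeR adjusted p = 0.447).

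After amphetamine in the control line the interval of each remaining member held 0. Tsc22d3 ranged from 62.2 to 82.3 CPM in control saline and from 63.5 to 101 CPM in control amphetamine (log2 0.18, 95% interval -0.16 to 0.52). Nfkbia ranged from 12.6 to 15.2 CPM and from 13.7 to 16.1 CPM in the same groups (log2 0.08, 95% interval -0.14 to 0.31). Mt1 and Mt2 had log2 fold changes of -0.02 (95% interval -0.43 to 0.39) and 0.08 (-0.33 to 0.49). Cdkn1a had a log2 fold change of 0.46 (95% interval -0.04 to 0.97) in the control line and -0.17 (-0.67 to 0.33) in the overactive line. In the overactive line the other estimates were -0.04 for Tsc22d3, 0.07 for Nfkbia, -0.07 for Mt1 and -0.22 for Mt2, and each interval held 0.

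No member passed for amphetamine in the overactive line, where 0% of all genes were called (8.03% at an unadjusted p under 0.05) and 0 of 10 members had an unadjusted p under 0.05. Positive and negative estimates were 5 each, with a median of 0.00 (limma-voom 4 and 6, median -0.02). DESeq2 and limma-voom also called 0 members there, with 0 and 1 under an unadjusted p of 0.05. Pooled over both lines, 0 members passed, as did 0% of all genes (11% at an unadjusted p under 0.05). There 8 members were positive, the median was 0.08 and 1 member, Zbtb16, had an unadjusted p under 0.05 (DESeq2 2, limma-voom 1). The test of the difference between the lines in the response called 0 members and 0% of all genes (2.96% at an unadjusted p under 0.05). Its estimates were negative for 9 members, with a median of -0.21 (limma-voom 7, median -0.19). No member had an unadjusted p under 0.05 with edgeR, DESeq2 or limma-voom. Cdkn1a had the lowest edgeR estimate, at -0.63 (95% interval -1.34 to 0.07).

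**Figure D2:**
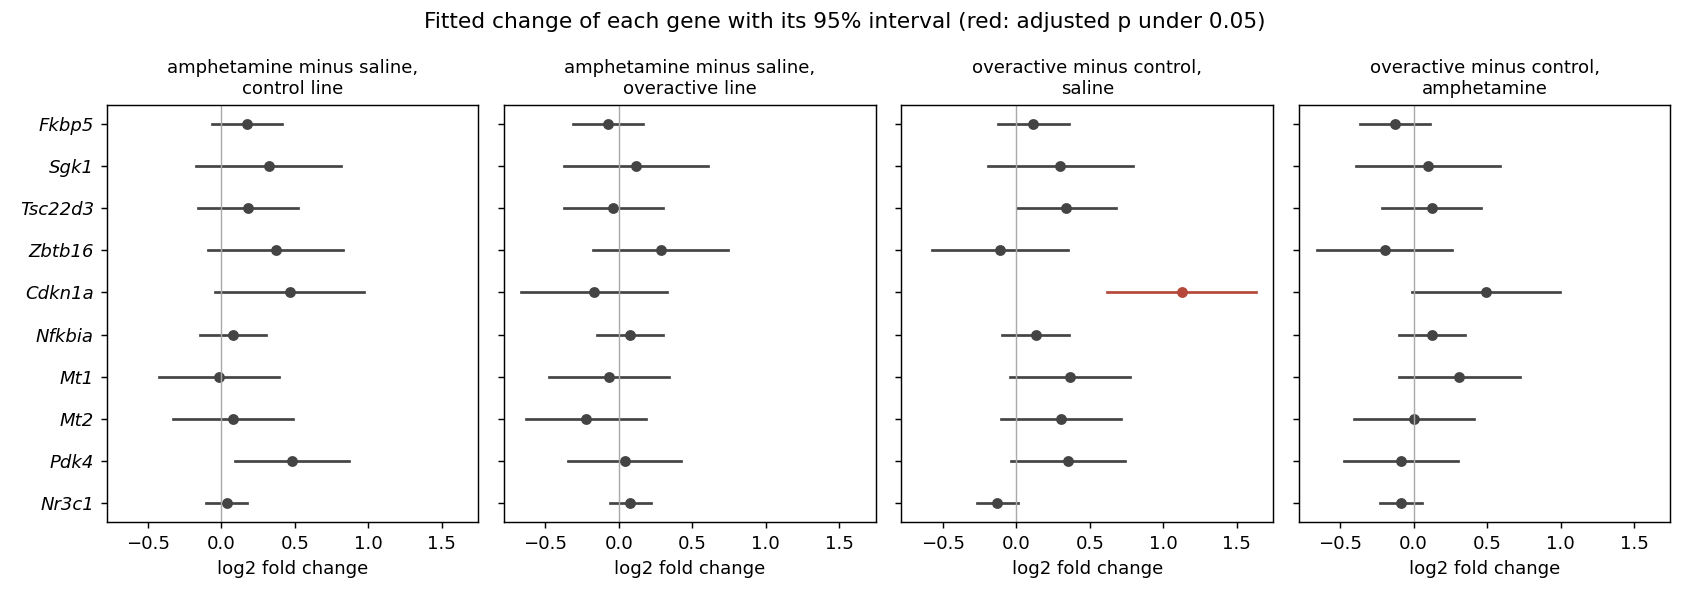
Each row is 1 gene and each panel 1 comparison, with the log2 fold change on the horizontal axis; points are estimates and lines 95% intervals. Cdkn1a in saline (1.13, interval 0.62 to 1.63) is the 1 estimate in these 4 panels that passed.

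Cdkn1a differed between the lines. It measured 10.1, 8.64, 8.73, 5.78 and 7.56 CPM in control saline libraries 1 to 5 and 15.3, 12.6, 27.1, 13.3 and 20.8 CPM in overactive saline libraries 1 to 5. Every overactive saline library stood above every control saline library. The means were 8.17 ± 1.62 and 17.8 ± 6.09 CPM (SD, n = 5), a 2.18-fold difference (log2 1.13, SE 0.24, edgeR adjusted p = 0.0282). Groups did not overlap in this comparison for 4.26% of the genes tested, and 1.11% of all genes passed (17.3% at an unadjusted p under 0.05). Cdkn1a was the 1 member of 10 that passed, also with DESeq2 and limma-voom. The call was lost without control saline library 2 (adjusted p = 0.053), 3 (0.0553), 4 (0.0533) or 5 (0.074) or overactive saline library 3 (0.0733) or 5 (0.0571), with log2 fold changes from 0.93 to 1.23 over all 20 libraries left out in turn.

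Under amphetamine the same gene measured 11.6, 14.99, 8.01, 11.9 and 9.84 CPM in the control line and 12.5, 25.2, 11.2, 17.3 and 13.2 CPM in the overactive line. These groups overlapped, with 2 overactive libraries above all control libraries. The log2 fold change was 0.49 (95% interval -0.01 to 0.99, edgeR adjusted p = 0.399), and without overactive amphetamine library 2 it was 0.27. No member passed in this comparison, in which 0.453% of all genes passed (12.9% at an unadjusted p under 0.05) and 0 members had an unadjusted p under 0.05 with edgeR or limma-voom and 1 with DESeq2. Of the 10 estimates 6 were positive with edgeR, with a median of 0.05, and 4 with limma-voom, with a median of -0.02.

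Over both treatments Cdkn1a stood 1.75-fold higher in overactive mice (log2 0.81, SE 0.17, edgeR adjusted p = 0.00831), and this call held with each of the 20 libraries left out in turn (log2 0.70 to 0.87). It was again the 1 member of 10 that passed, where 7.02% of all genes passed (25.6% at an unadjusted p under 0.05). The summed cortical markers were lowest in overactive saline, where Cdkn1a was highest. With the mean of those 12 markers as a covariate the log2 fold change of Cdkn1a was 1.05 in saline (adjusted p = 0.223) and 0.76 over both treatments (adjusted p = 0.0955), and neither passed. With that covariate 21 genes were called in saline and 200 over both treatments, against 191 and 1208 without it. From mouse to mouse within groups, Cdkn1a had r = -0.02 with those markers over the 20 libraries, and r = 0.33 without the 2 farthest libraries. With all 20 the permutation p of r was 0.958 (adjusted p = 0.988 over 110 combinations of members and marker lists), and rho was 0.22. With oligodendrocyte markers as the covariate Cdkn1a passed in both comparisons (1.22 and 0.92).

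By group median, markers of ependymal cells, the ciliated cells that line the ventricles, were highest where Cdkn1a was highest, as were some other marker lists. Summed over 8 genes, the ependymal median was 56.4 CPM in overactive saline (37.2 to 66.6 CPM), against 29.9 CPM in control saline, 33.0 CPM in control amphetamine and 34.2 CPM in overactive amphetamine. Thalamic and septal neuron markers also had their highest median in overactive saline (363.6 CPM, against 286.1 CPM in control saline). So did choroid plexus markers (374.9 against 363.8 CPM), blood markers (68.5 against 30.8 CPM) and striatal projection neuron markers (6927 against 6002 CPM). Astrocyte markers did so narrowly, at 2285.39 CPM against 2285.05 CPM in overactive amphetamine and 2214 CPM in control saline. The ranges of these lists overlapped between groups. Over both treatments 3 of the 8 ependymal genes passed as higher in the overactive line, Ccdc153 (log2 1.21, edgeR adjusted p = 0.019), Foxj1 (0.76, adjusted p = 0.0301) and 1700009P17Rik (1.07, adjusted p = 0.0453). In saline Ccdc153 passed (1.72, adjusted p = 0.0496). Rsph1 of the same list had negative estimates, at -0.21 in saline and -0.12 over both treatments, and did not pass. Within groups Cdkn1a had r = -0.14 with the ependymal markers (permutation p = 0.617, adjusted p = 0.905, and rho = -0.12), and r = 0.30 without the 2 farthest libraries. Beyond such correlations, the part of ependymal, thalamic and septal, choroid plexus, blood, striatal projection neuron and astrocyte markers in the line difference was not tested.

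Among the other members, Mt1 measured 81.4, 82.6, 78.8, 47.8 and 65.1 CPM in control saline and 115, 53.9, 109.6, 88.1 and 91.0 CPM in overactive saline. All overactive libraries but library 2 stood above every control library, and that 1 stood below all control libraries except library 4. In saline the log2 fold change was 0.36 (95% interval -0.05 to 0.77), and over both treatments 0.34 (95% interval 0.05 to 0.63, unadjusted p = 0.0244, edgeR adjusted p = 0.134). Without overactive saline library 2 Mt1 passed over both treatments (log2 0.41, adjusted p = 0.0461). Mt2 measured 51.2, 53.7, 48.6, 29.9 and 52.0 CPM in control saline and 71.8, 36.2, 63.9, 50.8 and 68.0 CPM in overactive saline (log2 0.30, 95% interval -0.10 to 0.71). The same 2 libraries, control saline 4 and overactive saline 2, were the lowest of their groups for both genes.

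Nr3c1 measured 119.8, 115, 122, 124 and 135 CPM in control saline and 104, 127, 113, 109 and 110.5 CPM in overactive saline. Of the overactive libraries 4 stood below all control libraries, and library 2 lay within their range. Its log2 fold change was -0.13 in saline (95% interval -0.27 to 0.01) and -0.11 over both treatments (95% interval -0.21 to -0.01, unadjusted p = 0.0354, edgeR adjusted p = 0.163). Tsc22d3 had 71.2, 82.3, 62.2, 74.3 and 77.0 CPM in control saline and 129, 70.4, 78.9, 84.3 and 103 CPM in overactive saline. Here 3 overactive libraries stood above all control libraries (log2 0.34, 95% interval 0.00 to 0.68, unadjusted p = 0.0476, edgeR adjusted p = 0.283). In saline 8 of 10 members were positive, with a median of 0.30 (limma-voom 0.21) against 0.00 over all genes. Of the 10 members 2 had an unadjusted p under 0.05 with edgeR, Cdkn1a and Tsc22d3, beside 17.3% of all genes. By DESeq2 there were 2 such members and by limma-voom 1. The remaining estimates there were 0.12 for Fkbp5, 0.30 for Sgk1, -0.11 for Zbtb16, 0.13 for Nfkbia and 0.35 for Pdk4, and each interval held 0. Over both treatments 7 members were positive, with a median of 0.14 (limma-voom 0.09). There 3 of 10 members had an unadjusted p under 0.05 with edgeR (Cdkn1a, Mt1 and Nr3c1), beside 25.6% of all genes. With DESeq2 it was 4 members and with limma-voom 3.

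The loci around Cdkn1a were read next, because it was the member that passed between the lines. Within 1 Mb of its locus 38 loci with a symbol were tested, and over both treatments 5 were higher and 5 lower in the overactive line. The 10 called were 26.3% of the 38, against 7.02% of all genes. The share was similar within 1 Mb of 3 members that did not pass, at 25.0% for Fkbp5 (11 of 44), 21.1% for Zbtb16 (4 of 19) and 4 of 20 for Nfkbia, and lay between 0 and 9.09% for the other 6. The windows of Fkbp5 and Cdkn1a overlap, as do those of Mt1 and Mt2. In saline 4 of the 38 passed, 1 higher and 3 lower. The 3 with the smallest p over both treatments, all lower in the overactive line, were Rnf8 (log2 -0.17, SE 0.04), Brpf3 (-0.19, SE 0.04) and Slc26a8 (-0.57, SE 0.13), between 252 and 514 kb away. Gm16197, chosen after its values were seen, lay 11.9 kb from the Cdkn1a locus and was higher (log2 0.79, SE 0.23, edgeR adjusted p = 0.0444), at a mean of 1.01 CPM, a call lost when any 1 of 14 libraries was left out. The deposited locus of Fkbp5 lies in the same window, 605 kb from that of Cdkn1a, and its line difference was -0.01 (95% interval -0.17 to 0.16).

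**Figure D3:**
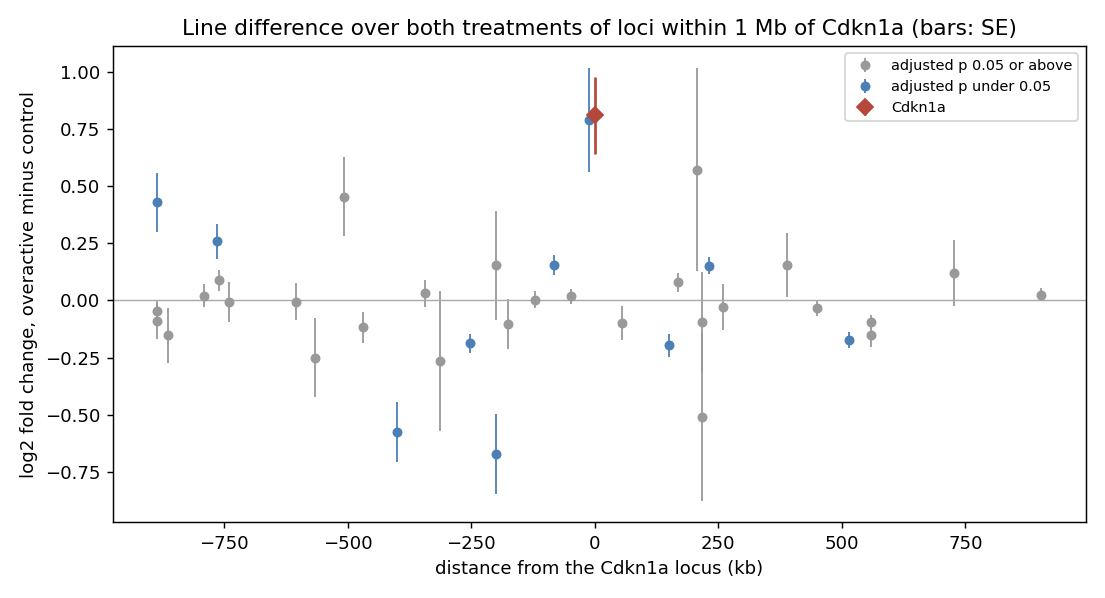
Points are the 38 loci within 1 Mb of Cdkn1a, with the distance in kb on the horizontal axis and the log2 fold change between the lines over both treatments on the vertical axis; bars are SE. Blue loci passed, 5 above and 5 below 0, and the red diamond is Cdkn1a at 0.81.

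Genes that other tissues induce with glucocorticoids were read beside the members, from a list of 42 that holds no member, of which 40 were tested. Over both treatments 5 of the 40 passed as higher in the overactive line and 0 as lower, beside 7.02% of all genes in either direction. They were Klf15, a transcription factor gene of amino acid and fuel metabolism (log2 0.33, SE 0.08), Glul, glutamine synthetase of astrocytes (0.22, SE 0.05), and Ddit4, an inhibitor of mTOR signalling (0.27, SE 0.07). Sdc4, a cell surface proteoglycan (0.38, SE 0.09), and Sult1a1, a sulfotransferase in a locus shared by 2 symbols (0.19, SE 0.05), were named after their values were seen. The edgeR adjusted p of the 5 lay between 0.0138 and 0.0276. Over the 40 genes 33 estimates were positive, with a median of 0.10 against 0.00 over all genes.

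Klf15 averaged 30.4 ± 2.64 CPM in control saline and 39.0 ± 3.79 CPM in overactive saline, and 30.7 ± 3.56 and 37.9 ± 6.76 CPM under amphetamine (SD, n = 5). Glul averaged 1137 ± 30.8 and 1361 ± 64.3 CPM in saline, and 1175 ± 126 and 1338 ± 161 CPM under amphetamine, on the same order of groups. Both genes stood higher in the overactive line under either injection. With the cortical markers as a covariate none of the 5 passed (adjusted p from 0.104 to 0.262), at log2 fold changes of 0.28 for Ddit4, 0.18 for Glul, 0.23 for Klf15, 0.27 for Sdc4 and 0.15 for Sult1a1. With the oligodendrocyte markers Klf15 (0.26), Ddit4 (0.24) and Sdc4 (0.33) did not pass (adjusted p from 0.0896 to 0.107). Sult1a1 did not pass without control saline library 5 (0.0518). Oligodendrocyte markers summed to medians of 3165 and 3160 CPM in control saline and control amphetamine and 3524 and 3585 CPM in the overactive groups, over 11 genes. Of 11 astrocyte markers tested, 3 passed as higher in the overactive line over both treatments, Aldh1l1 (log2 0.32, edgeR adjusted p = 0.014), Fgfr3 (0.26, adjusted p = 0.0182) and Gja1 (0.20, adjusted p = 0.0299), and S100b passed as lower (-0.78, adjusted p = 0.000296). In this comparison 7.02% of all genes passed. Markers of other lists passed there as well. Of the oligodendrocyte markers, Mobp (0.32) and Gjb1 (0.49) were higher. Of the microglia markers, Itgam was higher (0.44), and Aif1 (-0.36), C1qc (-0.41), Trem2 (-0.48) and Ctss (-0.40) were lower. The part of astrocytes and microglia in the 5 results was not tested, and that of cortical tissue and oligodendrocytes not beyond these covariates.

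After amphetamine no gene of this list passed in either line. Of 40 estimates 29 were positive in the control line, with a median of 0.08, and 4 had an unadjusted p under 0.05, all positive. Nedd9, an adaptor protein gene, had the smallest p there among positive estimates (log2 0.30, SE 0.08, edgeR adjusted p = 0.856) and Sult1a1 among negative ones (-0.13, SE 0.07). In the overactive line 23 of 40 were positive, led by Cebpd, a transcription factor gene (0.35, SE 0.13), and Txnip, an inhibitor of thioredoxin, led the negative ones (-0.52, SE 0.20). Over both lines Cebpd had a log2 fold change of 0.39 (SE 0.09, unadjusted p = 0.000555, edgeR adjusted p = 0.21). Neither line comparison within a treatment called a gene of the list.

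The receptor complex and steroid handling list, with the mineralocorticoid receptor, chaperones and coactivators, had 16 genes tested beside Nr3c1. None passed in any of the 7 comparisons. The coactivator gene Ncoa1 had the smallest p after amphetamine, at log2 0.17 (SE 0.05) in the control line and 0.11 (SE 0.05) in the overactive line, and Fkbp4, an antagonist of Fkbp5 at the receptor, stood at -0.13 (SE 0.06) over both lines. Hsd11b1, which regenerates active hormone inside cells, stood at -0.57 (SE 0.25) between the lines in saline, with an edgeR adjusted p of 0.249. The stress peptide list had 14 genes tested and none passed. Crhbp, the binding protein of corticotropin-releasing hormone, stood at 0.70 (SE 0.22) after amphetamine in the overactive line and at -0.59 (SE 0.22) between the lines in saline. Crhr2, a receptor of that hormone family, stood at -0.71 (SE 0.29) and 0.81 (SE 0.29) in the same comparisons, which share the overactive saline group.

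Relatives of the members were read in 5 further lists. In the serum kinase, Tsc22 and Zbtb16 families 2 of 13 other genes passed over both treatments, 1 higher and 1 lower, where 7.02% of all genes passed. Tsc22d4, a paralog of Tsc22d3, had more RNA in overactive mice (log2 0.22, SE 0.05, edgeR adjusted p = 0.0195), and Nedd4l, a ubiquitin ligase that SGK1 inhibits, was lower (-0.32, SE 0.08, adjusted p = 0.0231). Tsc22d4 averaged 70.5 ± 5.98 CPM in control saline and 81.5 ± 6.01 CPM in overactive saline (SD, n = 5). Neither passed with cortical or oligodendrocyte markers as a covariate (adjusted p from 0.103 to 0.235), at log2 fold changes of 0.16 and 0.17 for Tsc22d4 and -0.27 with either for Nedd4l.

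Cdkn1a is also a classic target of the tumour suppressor p53, so 18 other p53 targets were tested. Of these 1 passed over both treatments, where 7.02% of all genes passed, and it was lower. It was Zmat3, an RNA-binding protein gene (log2 -0.14, SE 0.04, edgeR adjusted p = 0.0453), a call that was lost when any 1 of 13 libraries was left out. Pmaip1 had the smallest p among positive estimates (1.17, SE 0.39, adjusted p = 0.0735). The median of the 18 was 0.04. None of the 15 other NF-kappaB genes, 7 other metal-responsive genes or 20 other genes of fuel switching passed in any comparison. Slc39a10, a zinc importer gene, stood at 0.20 (SE 0.11) and 0.30 (SE 0.11) after amphetamine in the control and overactive lines. Bcl3, a nuclear partner of NF-kappaB, stood at 0.52 (SE 0.29) and 0.84 (SE 0.29) in the same comparisons.

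Some pairs of members varied together from mouse to mouse within the groups. Deviations of log2 CPM from the group mean were compared over the 20 libraries for all 45 pairs, with 100000 permutations within groups and Benjamini-Hochberg adjustment over the pairs, and 14 pairs passed, 9 with a positive r and 5, all with Nr3c1, with a negative r. By rank, 3 of the 14 did not pass, Tsc22d3 with Zbtb16 (adjusted p of rho = 0.0559), Tsc22d3 with Mt1 (0.0532) and Mt2 with Nr3c1 (0.0521). The share of all gene pairs that reach such values was not computed. Mt1 and Mt2 followed each other most closely (r = 0.93, permutation p = 3e-05, adjusted p = 0.0012, and rho = 0.89). For each of them the other was the closest of 14957 genes with a mean of at least 1 CPM. Sgk1 and Nfkbia came next (r = 0.89, permutation p = 7e-05, adjusted p = 0.0012, and rho = 0.89), and each was likewise the closest gene of the other.

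The receptor gene went the opposite way to several of the other members. Nr3c1 had r = -0.83 with Fkbp5 (permutation p = 8e-05, adjusted p = 0.0012), -0.77 with Pdk4 (adjusted p = 0.00382) and -0.75 with Tsc22d3 (adjusted p = 0.00456). With Fkbp5 its rho was -0.77 (permutation p of rho = 0.00067). It had r = -0.66 with Mt1 and -0.61 with Mt2 (permutation adjusted p = 0.018 and 0.0281). Fkbp5, Tsc22d3 and Pdk4 varied together, with r = 0.73 for Fkbp5 and Tsc22d3, 0.78 for Fkbp5 and Pdk4 and 0.79 for Tsc22d3 and Pdk4. By the size of r, Nr3c1 ranked 2 of 14957 genes for Fkbp5, Pdk4 ranked 7, and Tsc22d3 ranked 18. The other pairs that passed were Tsc22d3 with Mt2 (r = 0.71), Zbtb16 (0.62) and Mt1 (0.62), and Sgk1 with Pdk4 (0.62). Many other genes stood closer to these members, since by the size of r Pdk4 ranked 257 for Sgk1, Mt1 ranked 267 for Tsc22d3 and Nr3c1 ranked 393 for Mt2. Cdkn1a passed with no other member.

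Leaving out the 2 libraries farthest from the median of the first gene of each pair kept 4 of the 14 pairs past the test. They were Mt1 with Mt2 (r = 0.87), Sgk1 with Nfkbia (0.85), Fkbp5 with Nr3c1 (-0.74) and Fkbp5 with Pdk4 (0.68), and the other 10 did not pass over the 18 libraries left. Their r lay between 0.49 and 0.70 in size, with the same sign, and some changed little, such as Sgk1 with Pdk4 (0.65 against 0.62 with all libraries) and Mt1 with Nr3c1 (-0.62 against -0.66). The first principal component of all genes' deviations held 13.9% of the variance. Its r with members ranged from -0.51 (Nr3c1, permutation p = 0.0414) to 0.45 (Pdk4, permutation p = 0.0577), and none of 20 relations with it or with the library total passed (smallest adjusted p = 0.577).

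**Figure D4:**
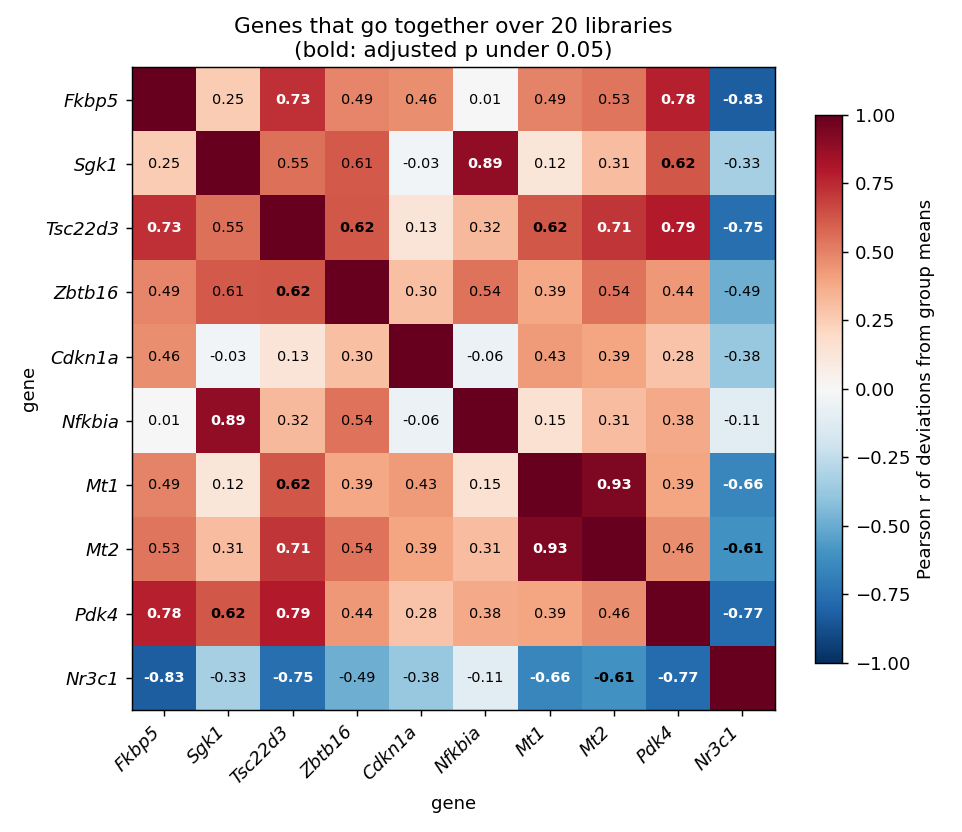
Each cell gives Pearson r between 2 genes over 20 libraries after removing group means, with red for positive and blue for negative values; bold values passed. Mt1 with Mt2 (0.93) and Sgk1 with Nfkbia (0.89) are the highest, and the row of Nr3c1 is negative with Fkbp5 (-0.83).

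Libraries differed in how many members lay above the group mean. In overactive saline library 5 and overactive amphetamine library 2, 9 of 10 members stood above it, as in control saline library 2. In overactive saline library 1 it was 8 of 10, with a median deviation of 0.36 on the log2 scale. At the other end, overactive saline library 4 had 0 of 10 above the mean, and overactive saline library 2 and overactive amphetamine library 1 had 1 of 10, with median deviations of -0.37 in the former and -0.28 in the latter. In both of these last libraries the 1 member above the mean was Nr3c1. The labels give no time of day and no batch, so neither was tested.

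**Figure D5:**
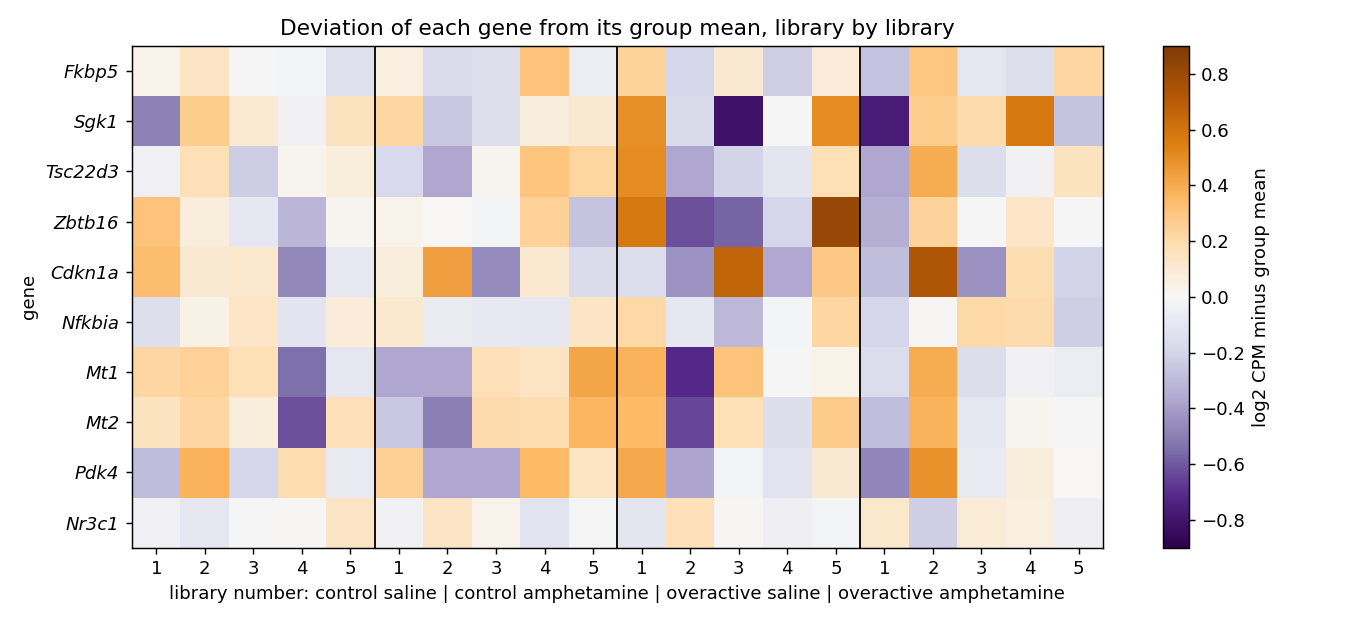
Rows are genes and columns the 20 libraries in their 4 groups, with colour for the deviation of log2 CPM from the group mean (orange above, purple below). Overactive saline library 1 is high for most genes (median 0.36) and library 2 low (median -0.37), with Nr3c1 the opposite way in library 2.

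Markers of 11 cell types were set against the members in the same way, as 110 combinations, and none passed (smallest adjusted p = 0.673). The largest in size were Nr3c1 with astrocyte markers (r = -0.63, permutation p = 0.00639, and rho = -0.53, permutation p = 0.0307) and Mt1 with astrocyte markers (r = 0.59, permutation p = 0.0142, and rho = 0.54, permutation p = 0.0226). Without the 2 farthest libraries these were -0.61 and 0.61. Astrocyte markers summed to medians of 2214, 2213, 2285 and 2285 CPM over 11 genes in control saline, control amphetamine, overactive saline and overactive amphetamine.

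The genes most like each member were found among 14958 with a mean of at least 1 CPM by the highest r of the same deviations over the 20 libraries, as a description. For Fkbp5 they were Ppp2r5b (r = 0.83), Eif3m (0.81) and Mettl8 (0.79). For Sgk1, after Nfkbia, they were Plekhf1 (0.87) and Alpk1 (0.84). Nfkbia, after Sgk1, had the shared locus of 2310003F16Rik and Serf2 (0.87) and Aif1l (0.81). Tsc22d3 had Il12rb1 (0.87), 1110051M20Rik (0.85) and Gm3362 (0.82), and Zbtb16 had Ift46 (0.84), Tmsb4x (0.83) and Errfi1 (0.81), which is itself among the 40 glucocorticoid-induced genes tested.

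Mt1, after Mt2, was followed by Ndufv1 (r = 0.86) and Spg7 (0.85), and Mt2, after Mt1, by the locus of Amy1, Amy2a1 and Rnpc3 (0.88) and by Eif3k (0.84). Pdk4 had Rin2 (0.82), Plekhf1 (0.82) and Gm17251 (0.80). Plekhf1 was thus among the closest genes of both Sgk1 and Pdk4. Nr3c1 had Rasgef1b (0.86), Dagla (0.84) and Acvr1 (0.82). The closest genes of Cdkn1a reached lower values, with Grb2 at 0.71, Dom3z at 0.69 and Hspa2 at 0.69.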

How the data were processed

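Per the labels' protocols, the whole striatum of each mouse was frozen, RNA was extracted with a lipid tissue kit and paired-end Illumina libraries were sequenced. For all 20 libraries the authors deposited estimated counts per locus in 1 table, unscaled. The submitters' processing notes name mm10 and GRCm38. The aligner and the counting tool are not given in the sources used here. Of the values 93.92% were whole within 0.01, and all were rounded. Of 37051 loci, 10576 without a symbol (0.65% of counts) were left out.

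Counts were analysed with edgeR 4.0.16 in R 4.3.3 (filterByExpr, TMM, 1 mean per group, quasi-likelihood test, two-sided). Alternatives were DESeq2 1.42.0, limma 3.58.1 (voom with sample weights), RLE and upper quartile scaling, other filters, a fit of the 2 groups alone, a replicate block, marker scores as covariates, and each library left out. Exon lengths came from GENCODE M21. Log2 CPM used a prior count of 2. Log2 fold changes had a median SE of 0.11 for 2 groups and 0.08 when pooled. On simulated data for the line comparison in saline (17206 genes), the test recovered 26% of genes changed 1.25-fold, 66% at 1.5-fold, 74% at 2-fold and 100% at 4-fold. False calls were 3 of 136. Libraries of a group differed by more than sampling noise. Permutations, correlations and figures used Python 3.11.15 with numpy 2.4.6, pandas 2.3.3 and matplotlib 3.10.9.

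The members and gene lists were chosen with earlier results of these data known. All members are named. Of each list the genes named are those that passed, up to 3 in each direction by smallest p, otherwise the 1 with the smallest p in a direction. The 3 genes most like each member and 3 loci near a member that passed are named too. One gene that this rule takes is not reported here.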

Additional observations from a re-analysis of the deposited data

Results flagged for a closer look

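In 2 of 40 groups of 5 libraries tested, 1 library stood apart from the others by Dixon's criterion, which chance meets in about 1 group in 20. Mt1 measured 113.7 CPM in overactive amphetamine library 2, against 84.5 CPM in the next highest library of that group. Mt2 measured 29.9 CPM in control saline library 4, against 48.6 CPM in the next lowest.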

How the results depend on the processing

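For the members, 653 of 670 values under other settings and 1343 of 1400 with 1 library left out kept their direction and their side of the threshold. Cdkn1a lost both calls with cortical markers as a covariate, which left 0 members past the test in saline and 0 over both treatments. With 1 library left out the count of members past the test was 0 to 1 in saline and 1 to 2 over both treatments. For 12 other genes with a call between the lines, named from the gene lists or near Cdkn1a, 87 of 108 and 212 of 240 values stayed the same in this sense. The rest lost their call and 0 changed sign. The cell type markers named with such a call were not checked in this way. The pairs past the test were 4 without the 2 farthest libraries of each pair, and 10 to 19 with 1 library left out. For the pairs that passed with all libraries, 255 of 280 values with 1 library left out stayed past the test. The other 25 lost their call.

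The values that changed sign belonged to genes that did not pass in the comparison concerned. With cortical markers as a covariate these were, after amphetamine in the overactive line, Fkbp5 (0.024), Tsc22d3 (0.012) and Nr3c1 (-0.00376), Nr3c1 over both lines (-0.000208) and in the difference between the lines (-0.0071), and Zbtb16 between the lines in saline (0.12) and over both treatments (0.019). With limma-voom they were Pdk4 after amphetamine in the overactive line (-0.012), Zbtb16 (0.053) and Nfkbia (0.046) in the difference between the lines, and Sgk1 (-0.0074) and Mt2 (-0.035) between the lines under amphetamine. In that comparison Sgk1 was -0.059 with oligodendrocyte markers and Mt2 -0.000938 with only the groups compared, and upper quartile scaling gave Fkbp5 0.0063 over both treatments.

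With 1 library left out, the ranges that crossed 0 after amphetamine in the control line were -0.13 to 0.069 for Mt1 and -0.047 to 0.18 for Mt2. In the overactive line they were -0.40 to 0.032 for Cdkn1a, -0.21 to 0.025 for Mt1, -0.098 to 0.16 for Pdk4, -0.042 to 0.27 for Sgk1 and -0.15 to 0.11 for Tsc22d3. Mt1 ranged from -0.11 to 0.0056 over both lines. In the difference between the lines Mt1 ranged from -0.19 to 0.064, Nfkbia from -0.083 to 0.049 and Zbtb16 from -0.22 to 0.16. Between the lines the ranges were -0.35 to 0.026 for Zbtb16 in saline, -0.041 to 0.036 for Fkbp5 over both treatments and, under amphetamine, -0.10 to 0.098 for Mt2, -0.22 to 0.018 for Pdk4 and -0.063 to 0.25 for Sgk1.

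The labels do not say whether a replicate number pairs mice. Libraries with the same number in different groups had correlations from -0.23 to 0.25. Among the libraries of other groups, 6 of 20 libraries were closest to one of their own number. These values cannot exclude a pairing with a small effect. With the number as a replicate block 1 member passed in saline (Cdkn1a, log2 1.14, adjusted p = 0.0466), 1 over both treatments (0.81, adjusted p = 0.0176) and 0 in the other comparisons. All genes called with edgeR and DESeq2 numbered 0 and 40 after amphetamine in the overactive line, 0 and 181 over both lines, 191 and 764 between the lines in saline, 78 and 322 under amphetamine and 1208 and 2095 over both treatments. With 5 mice a group, changes of up to 2-fold were found in part only.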
